A study of Mus musculus with 35 samples.

Results

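The set described here holds 10 of the 53379 gene identifiers in the count table, namely Spic, Vcam1, Hmox1, Slc40a1, Slc11a1, Cd163, Fcna, Dnase1l3, Fth1 and Ftl1. They were matched by Ensembl identifier to these symbols, and all 10 were found. The genes were named for their part in red pulp macrophages and iron handling and were selected on levels seen in these same libraries as CPM (counts scaled to the total of their library), with no threshold and no single contrast recorded. The tests below therefore describe the members and are not independent support for any pattern among them.

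Tumors were grown in the pancreas of female C57BL/6 mice from T110299, a line derived from a pancreatic tumor of a genetically modified mouse, so that every mouse, controls included, carried the same line. Mice received poly(I:C)c, which is 50 µg of poly(I:C) complexed with polyethylenimine at an N/P ratio of 6, intravenously on days 18 and 20. Days were counted from tumor induction, and cells were sorted on the day after the second treatment. The sample labels call the control mice untreated, while the treatment protocol names glucose as the control. An age is not given for single libraries. Myeloid-derived suppressor cells (MDSC) were enriched by CD11b beads and sorted as PMN-MDSC (CD11b+Ly6CloLy6G+, the granulocytic kind) or M-MDSC (CD11b+Ly6ChiLy6G-, the monocytic kind), and spleens had been treated to lyse red blood cells. The groups were untreated spleen PMN-MDSC (n = 4), treated spleen PMN-MDSC (n = 3), untreated and treated tumor PMN-MDSC (n = 4 each), untreated and treated spleen M-MDSC (n = 4 each), untreated tumor M-MDSC (n = 4), treated tumor M-MDSC (n = 3) and untreated bulk tumor (n = 4). Libraries are numbered within a group only to name them. The sample titles repeat the same numbers over the organs and cell types of a treatment, so these groups may come from the same mice, and the fits between sites or cell types took their libraries as independent.

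Red pulp macrophages take up aged red blood cells in the spleen, break down their hemoglobin and return the iron to the blood. Their identity depends on the transcription factor SPIC, which heme induces by removing the repressor BACH1. Heme oxygenase 1 (Hmox1) opens the heme ring and frees its iron, ferritin heavy and light chains (Fth1, Ftl1) form the shell that stores it, and ferroportin (Slc40a1) is the exporter that releases it from the cell. VCAM-1 and the hemoglobin scavenger receptor CD163 are used as surface markers of these macrophages, NRAMP1 (Slc11a1) moves iron and other metals out of the phagosome, ficolin A (Fcna) is a secreted lectin of the complement system, and DNASE1L3 is a secreted nuclease that digests DNA in chromatin. Iron storage and export take place in many cell types.

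In GRCm38 the members lie on 9 chromosomes. Slc40a1 (chr1:45908068-45926523, minus strand) and Slc11a1 (chr1:74375195-74386062, plus strand) share chromosome 1, far apart. Spic lies at chr10:88674772-88685015, Vcam1 at chr3:116109949-116129688, Fcna at chr2:25624666-25628030, Dnase1l3 at chr14:7964533-7994573 and Ftl1 at chr7:45457944-45459884, all on the minus strand, and Hmox1 at chr8:75093621-75100589, Cd163 at chr6:124304656-124330527 and Fth1 at chr19:9980598-9985098, all on the plus strand.

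Ferritin and ferroportin share a control that acts on translation, not on the transcript level measured here. Iron regulatory proteins bind a hairpin, the iron-responsive element, in the 5′ UTR of these mRNAs. A pattern search (a loop of 6 bases reading CAGTG then A, C or T, with 5 paired bases on each side of it and an unpaired C upstream) over the annotated 5′ UTRs found it in 23 of 20899 genes (0.11%) and in 3 of the 10 members, Slc40a1, Fth1 and Ftl1. The 3 sites are shown, 30 bases each from the GENCODE M21 transcripts (GRCm38), with the loop in capitals, because they are the sequence feature that sets these members apart from the other 7. The Slc40a1 site lies at chr1:45925464-45925493 on the minus strand, the Fth1 site at chr19:9982732-9982761 on the plus strand and the Ftl1 site at chr7:45459778-45459807 on the minus strand.
Slc40a1: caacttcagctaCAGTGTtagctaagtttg
Fth1: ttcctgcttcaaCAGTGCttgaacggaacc
Ftl1: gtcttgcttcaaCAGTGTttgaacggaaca
A match is a description of the letters and says nothing on the iron state of the cells.

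RefSeq promoter windows (GRCm38.p6, 250 bases before to 50 after a start) were at hand for 6 members, in 7 windows, and not for Hmox1, Vcam1, Slc40a1 and Dnase1l3. The antioxidant response element core TGACNNNGC was in none of the 7, against 12.4% of all 32851 windows, and the interferon-stimulated response element core was in none, against 3.44%, both strands being read. The PU.1 and SPIC family core GAGGAAG was in 13.6% of all windows and in 1 member's window, that of Fcna (chr2:25627925-25628224, minus strand), where it occurred 3 times. The window around the match at -169 is shown since Fcna was among the members that fell most in treated spleen PMN-MDSC, with the motif in capitals.
Fcna: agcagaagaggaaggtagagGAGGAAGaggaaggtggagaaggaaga

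Gene counts summed to between 793070 and 4357105 per MDSC library and between 3771590 and 8886115 per bulk tumor library, and 1 treated tumor M-MDSC library with 10 counts was left out, so that 34 of 35 libraries were used. No pair of libraries of a group agreed within sampling noise. The sort labels were read against marker lists. The summed level of 8 neutrophil genes was 16732 to 29611 CPM in untreated spleen PMN-MDSC, but 1017 to 3887 CPM in untreated tumor PMN-MDSC. Ly6g, the gene of the sorting antigen, was at 34.5 to 84.7 CPM in untreated spleen PMN-MDSC and at 0 to 9.19 CPM in untreated tumor PMN-MDSC, so the neutrophil markers were low in the tumor libraries that carry this label. A list of 6 monocyte genes summed to 2085 to 4511 CPM over the M-MDSC groups and to 1155 to 2227 CPM over the tumor PMN-MDSC groups. In untreated spleen PMN-MDSC, library 1 stood above the other 3 libraries for several members and for marker lists of other cells, and every fit that uses it was repeated without it.

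**Figure D1:**
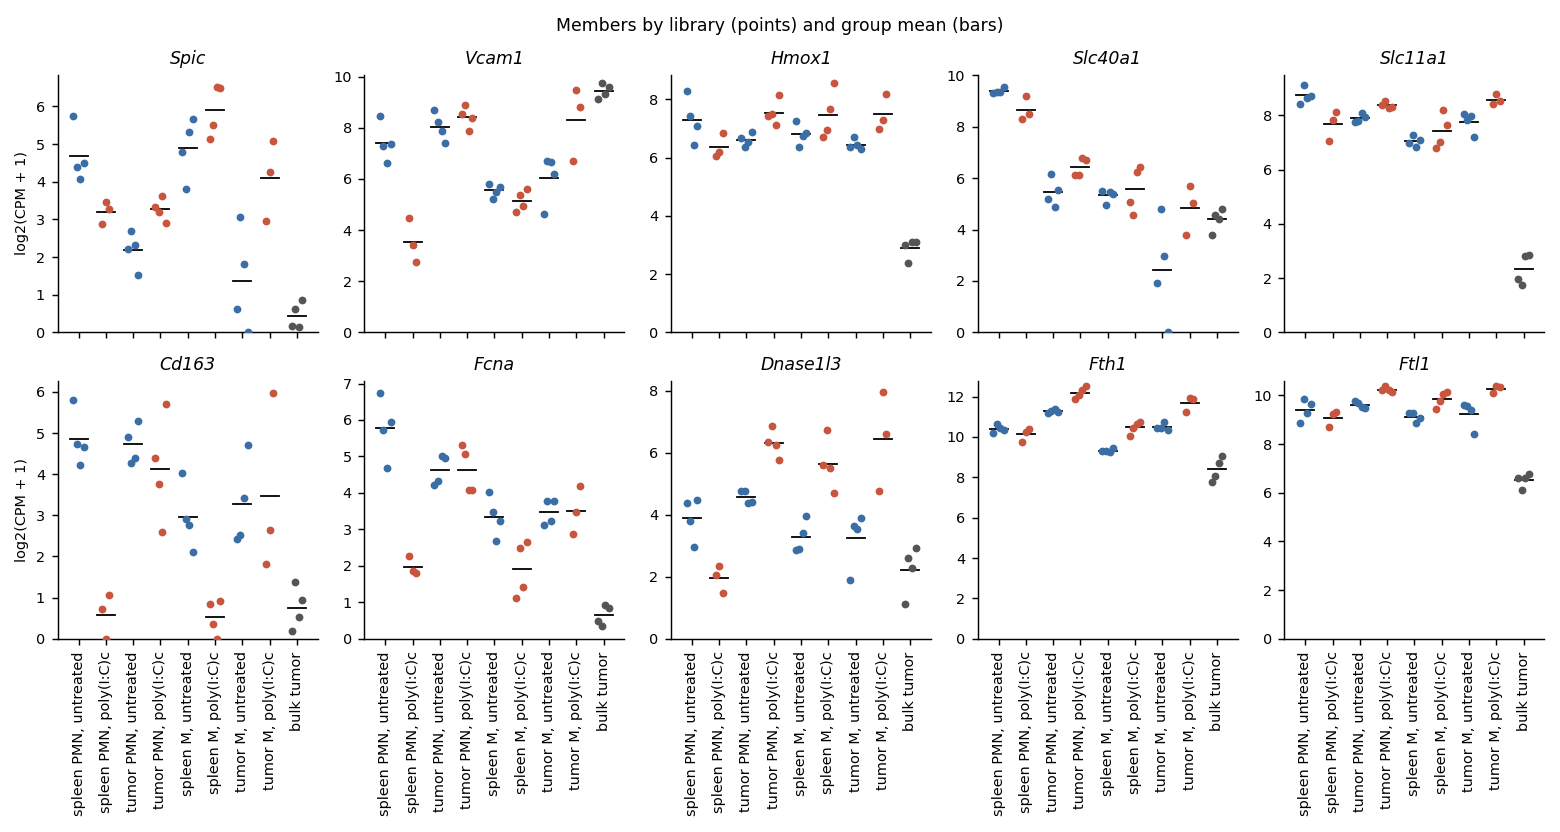
Level of each member in each library as log2(CPM + 1), by group (points, libraries; bars, mean of the plotted values; blue, untreated; red, poly(I:C)c; grey, bulk tumor). Slc40a1 is highest in untreated spleen PMN-MDSC, Fth1 lies above the other members in most groups, and Cd163 and Fcna are low in treated spleen PMN-MDSC and in bulk tumor.

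After poly(I:C)c, 4 of the members fell in spleen PMN-MDSC, the surface markers Vcam1 and Cd163, the lectin gene Fcna and the nuclease gene Dnase1l3, by 3.72, 5.36, 4.08 and 2.02 on the log2 scale. The call of Dnase1l3 was lost in 4 of the 5 fits without 1 library that could test it. No difference passed the test for Spic and for the members of heme and iron handling, although Slc11a1 was called lower with library totals (-1.02, adjusted p = 0.0459) and in a fit over all groups (-0.80, adjusted p = 0.0486). Each comparison was tested with edgeR's quasi-likelihood F-test, and p-values were adjusted by Benjamini-Hochberg over all genes averaging 25 counts or more per library fitted, a gene being called at an adjusted p under 0.05. Of the 10 members, all tested, 4 were called lower and 0 higher, and 11.6% of all 7261 genes tested were called in either direction. The median log2 fold change was -1.08 over the members and 0.01 over all genes tested.

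Vcam1 was at 348, 153, 97.2 and 163 CPM in the 4 untreated spleen PMN-MDSC libraries and at 21.1, 9.65 and 5.76 CPM in the 3 treated ones. The groups did not overlap, and the log2 fold change was -3.72 ± 0.58 (SE; adjusted p = 0.00673). Cd163 was at 55.2, 25.4, 17.6 and 24.1 CPM in untreated and at 0.640, 0 and 1.08 CPM in treated libraries. The treated libraries held 1, 0 and 3 counts of Cd163, against 51 to 208 counts in the untreated libraries, and it fell with an adjusted p of 0.00453. From the pooled counts, 386 untreated and 4 treated, Cd163 was 57.3-fold higher in untreated libraries, with an exact 95% interval of 22.2 to 211.4 that covers counting error only. This ratio rests on few treated counts, and it was 139 without treated library 3, 35.4 without treated library 2 and 38.8 without untreated library 1. The fitted log2 fold change of Cd163 ran from -6.47 to -4.735 over the fits without 1 library. Fcna was at 107, 52.3, 24.7 and 60.4 CPM in untreated and at 3.84, 2.60 and 2.52 CPM in treated libraries, with no overlap (log2 fold change -4.08 ± 0.55, adjusted p = 0.00411). Dnase1l3 was at 19.9, 12.9, 6.78 and 21.2 CPM and then at 3.20, 4.08 and 1.80 CPM. This fall (adjusted p = 0.0387) was lost in 4 of the 5 fits without 1 library in which Dnase1l3 could be tested, with log2 fold changes of -2.38 to -1.74 and an adjusted p of up to 0.136. Without untreated library 1 or 4 it had too few counts for the test. Vcam1, Cd163 and Fcna kept their calls in all 7 fits, and without untreated library 1 their log2 fold changes were -3.31 (adjusted p = 0.013), -4.945 (adjusted p = 0.00759) and -3.71 (adjusted p = 0.00741).

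Spic, the transcription factor of the lineage, was at 53.1, 19.9, 15.9 and 21.5 CPM in untreated spleen PMN-MDSC and at 6.4, 10.0 and 8.64 CPM after treatment. Its libraries did not overlap either, but the log2 fold change of -1.40 ± 0.46 did not pass the test (adjusted p = 0.0877), which DESeq2 (adjusted p = 0.0357), library totals without TMM (0.0459) and no filter on low counts (0.0082) put on the other side of the threshold. Library 1 supplied 200 of the 354 Spic counts of the untreated group, and without it the log2 fold change was -0.91 (adjusted p = 0.127).

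Markers of other cells moved in the same samples. The 12 other genes of the red pulp and macrophage list summed to 430.2 to 1370.3 CPM in untreated and to 141 to 188 CPM in treated spleen PMN-MDSC, with library 1 at the upper end and the other 3 at 430.2 to 738 CPM. Of its 11 tested genes 7 were called lower and 0 higher, led by the integrin Itgad at -4.72 ± 0.60 (adjusted p = 0.00368) and the receptor tyrosine kinase Axl at -3.49 ± 0.65 (adjusted p = 0.0137). The 6 erythroid genes summed to 47.8 to 148 CPM in untreated and to 0 to 4.48 CPM in treated libraries, where Hba-a1 and Epor were at 0. The 6 endothelial genes went from 32.5 to 90.5 CPM to 10.8 to 15.6 CPM, and the 7 dendritic cell genes from 24.4 to 75.6 CPM to 0.640 to 3.34 CPM. Library 1 was the highest for all 3 lists, and without it the untreated libraries reached 93.8, 45.8 and 31.5 CPM, still above every treated library. The 8 neutrophil genes summed to 16732 to 29611 CPM in untreated and 25307 to 47523 CPM in treated libraries, and 3 of the 8 were called higher and 0 lower, led by Ly6g (2.65 ± 0.30, adjusted p = 0.0028) and the collagenase gene Mmp8 (2.55 ± 0.30, adjusted p = 0.0028). Of the 6 monocyte genes, with sums of 552 to 1108 CPM in untreated and 754 to 1244 CPM in treated libraries, 4 were tested. Ly6c2 rose (4.01 ± 0.35, adjusted p = 0.00126), and the receptor genes Ccr2 (-5.92 ± 0.91, adjusted p = 0.00671) and Csf1r (-1.43 ± 0.34, adjusted p = 0.0302) fell. The part of other cells in the fall of Vcam1, Cd163 and Fcna was not tested. In these sorted populations, as in bulk tumor, fewer cells of a type and less RNA per cell cannot be told apart.

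**Figure D2:**
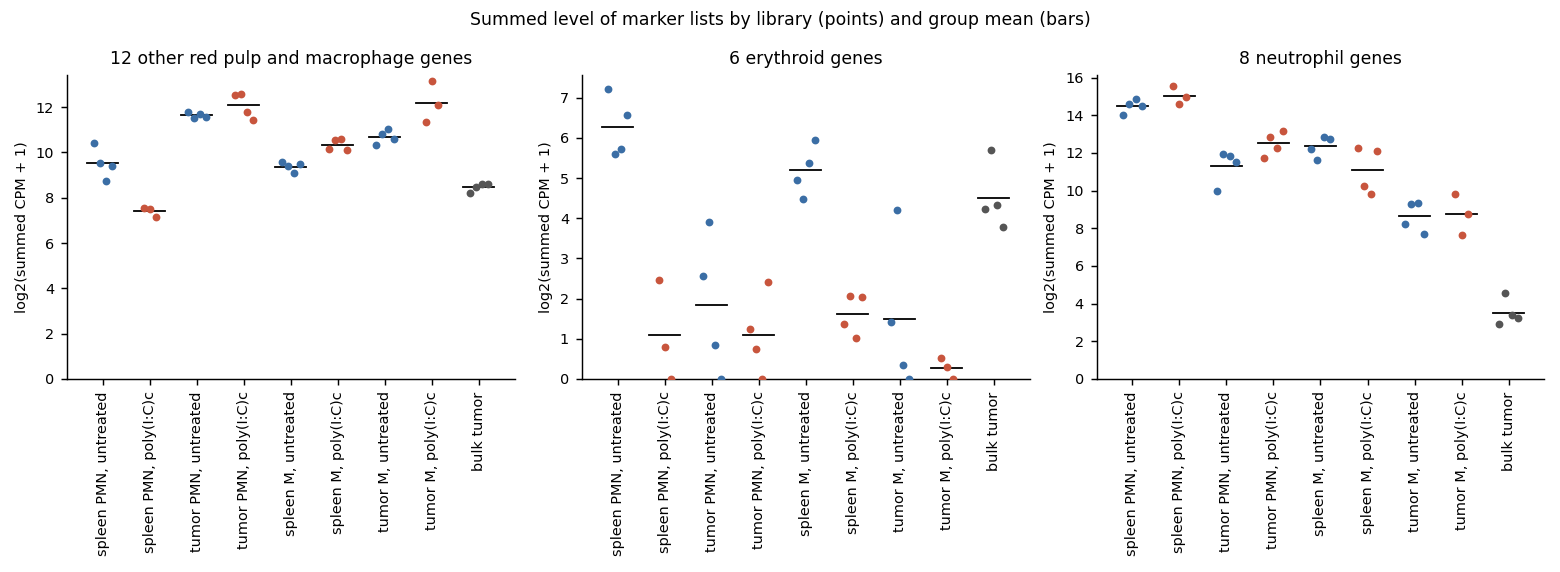
Summed level of 3 marker lists in each library as log2(summed CPM + 1) (points, libraries; bars, mean of the plotted values; blue, untreated; red, poly(I:C)c; grey, bulk tumor). The 12 red pulp and macrophage genes and the 6 erythroid genes are lower in every treated than in every untreated spleen PMN-MDSC library, while in tumor PMN-MDSC the macrophage genes are high and the neutrophil genes low.

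In tumor PMN-MDSC no difference passed the test for Vcam1, Cd163 and Fcna, and Dnase1l3 alone among the members was called. Dnase1l3 was at 26.1, 26, 19.6 and 20.4 CPM in untreated and at 80.5, 115, 74.4 and 53.8 CPM in treated tumor PMN-MDSC, without overlap. It rose by 1.77 ± 0.22 on the log2 scale (adjusted p = 0.00149), a call that all fits without 1 library kept. In total 1 of the 9 members tested was called higher and 0 lower, and 3.36% of all 8308 genes tested were called. Vcam1, by contrast with the spleen, was at 168 to 417 CPM in untreated and 233 to 475 CPM in treated libraries (log2 fold change 0.31 ± 0.28, adjusted p = 0.613), Cd163 at 18.4 to 38.4 and 5.02 to 51.3 CPM (95% interval of the log2 fold change -1.42 to 0.95, adjusted p = 0.881) and Fcna at 17.6 to 31.2 and 15.9 to 38.6 CPM (adjusted p = 0.971). The 12 other red pulp and macrophage genes summed to 2915 to 3509 CPM in untreated and 2738 to 6086 CPM in treated tumor PMN-MDSC, and 0 of the 10 tested were called by edgeR, with 3 at an unadjusted p under 0.05 and 2 called by DESeq2. The 4 marginal zone macrophage genes had sums of 137 to 242 CPM in untreated and 432 to 943 CPM in treated tumor PMN-MDSC, and 3 of 3 tested were called higher, among them the nuclear receptor Nr1h3 (2.34 ± 0.27, adjusted p = 0.00111) and the scavenger receptor Marco (1.94 ± 0.36, adjusted p = 0.0146). Cd209b, the gene of this list that was not tested, had counts in the untreated group and none in the treated group. The 5 epithelial tumor cell genes summed to 126 to 762 and 68.9 to 191 CPM, with Cdh1 called lower (-2.61 ± 0.44, adjusted p = 0.0108), and the 8 neutrophil genes to 1017 to 3887 and 3411 to 9361 CPM, of which edgeR called 0, with 4 at an unadjusted p under 0.05, and DESeq2 1. Of the 6 monocyte genes, with sums of 1487 to 2156 and 1155 to 2227 CPM, Ly6c2 (4.53 ± 0.57, adjusted p = 0.00247) and Ms4a4c (2.37 ± 0.31, adjusted p = 0.00225) were called higher and Ccr2 lower (-2.95 ± 0.61, adjusted p = 0.0367). The 7 dendritic cell genes, too low for the test, summed to 16.8 to 28.5 CPM in untreated and 0.861 to 13.7 CPM in treated libraries, without overlap. The part of such cells in the rise of Dnase1l3 was not tested. Spic had too few counts for the test, at 1.90 to 5.42 CPM (at most 10 counts a library) in untreated and 6.46 to 11.4 CPM in treated libraries, which did not overlap.

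Whether the treatment effect differed between spleen and tumor was tested as an interaction in PMN-MDSC, with the libraries of both sites taken as independent although the titles' numbers repeat between them. The effect was lower in spleen for Spic by 2.59 ± 0.57 on the log2 scale (adjusted p = 0.0207), for Vcam1 by 4.03 ± 0.62 (adjusted p = 0.00687), for Cd163 by 5.13 ± 1.14 (adjusted p = 0.0219), for Fcna by 4.13 ± 0.63 (adjusted p = 0.00687) and for Dnase1l3 by 3.82 ± 0.52 (adjusted p = 0.00675). These are 5 of 10 members, all in that direction, where 3.50% of all 8047 genes tested were called. Spic lost its call without treated spleen library 3 and had too few counts for the test without untreated spleen library 1, and Cd163 lost its call without treated spleen library 2 or 3. Hmox1 (adjusted p = 0.0594) and Slc11a1 (adjusted p = 0.0628) lay just outside the threshold, but inside it under other settings. The difference for Hmox1 was called by DESeq2 (adjusted p = 0.021), with library totals (adjusted p = 0.0238), in the fit over all groups (adjusted p = 0.0338) and without a filter (adjusted p = 0.000133). That for Slc11a1 was called by DESeq2 (adjusted p = 0.0268), with library totals (adjusted p = 0.0124), without a filter (adjusted p = 0.0265) and without untreated spleen library 1 (adjusted p = 0.0437).

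In spleen M-MDSC the direction of Dnase1l3 was opposite to that in spleen PMN-MDSC. Dnase1l3 was at 6.33, 6.50, 9.52 and 14.5 CPM in untreated and at 47.3, 105, 44.2 and 24.8 CPM in treated spleen M-MDSC. No library of the 2 groups overlapped, and it rose by 2.61 ± 0.47 on the log2 scale (adjusted p = 0.00495). With Fth1 and Ftl1, described further down, 3 of the 8 members tested were called higher and 0 lower, against 19.4% of all 8827 genes tested. Vcam1 was at 36.7 to 54.3 CPM in untreated and 24.9 to 48.2 CPM in treated libraries, with overlap (adjusted p = 0.355).

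Cd163 and Fcna were too low for the test in spleen M-MDSC. Cd163 held 14 to 29 counts in each untreated library (3.33 to 15.3 CPM) and 0 to 2 counts in each treated library (0 to 0.885 CPM). Pooled, 71 untreated against 5 treated counts gave a 14.9-fold higher level in untreated libraries, with an exact 95% interval of 6.10 to 47.3 for counting error only. Fcna was at 5.38 to 15.3 CPM in untreated and 1.18 to 5.31 CPM in treated libraries. These groups did not overlap, but their nearest libraries held 13 and 12 counts, so the gap is within counting error. The 6 erythroid genes summed to 21.4 to 60.7 CPM in untreated and 1.01 to 3.20 CPM in treated spleen M-MDSC, and the 6 endothelial genes to 27.9 to 36.4 and 130.6 to 294 CPM. The 4 marginal zone macrophage genes summed to 85.0 to 130 CPM in untreated and 471 to 825 CPM in treated libraries, and both genes tested were called higher, Nr1h3 (2.97 ± 0.21, adjusted p = 3.0e-05) and the sialic acid receptor Siglec1 (2.46 ± 0.28, adjusted p = 4.6e-04). Cd209b of this list was not tested and had counts in the untreated group and none in the treated group. Of the 6 monocyte genes 3 were called higher, led by Ly6c2 (2.74 ± 0.21, adjusted p = 4.3e-05), and Ccr2 lower (-2.75 ± 0.32, adjusted p = 5.5e-04). The part of such cells in the values was not tested.

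Spic was highest of all groups in treated spleen M-MDSC, at 33.9, 44.2, 90.8 and 88.9 CPM, against 26.9, 13.0, 39.3 and 50.0 CPM in untreated spleen M-MDSC. The groups overlapped, and the log2 fold change of 1.04 ± 0.43 did not pass the test (adjusted p = 0.124). Libraries 3 and 4 of the treated group were above libraries 1 and 2 for Spic, Hmox1, Slc40a1 and Slc11a1, and below them for Dnase1l3. The 12 other red pulp and macrophage genes summed to 539 to 754 CPM in untreated and 1096 to 1525 CPM in treated spleen M-MDSC, and 6 of 10 tested were called higher and 0 lower, led by the phagocytosis receptor Mertk (2.39 ± 0.56, adjusted p = 0.018) and by Axl (1.90 ± 0.42, adjusted p = 0.0142).

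The difference in treatment effect between M-MDSC and PMN-MDSC of the spleen was tested as well. It was higher in M-MDSC for Dnase1l3 by 4.57 ± 0.75 (adjusted p = 0.00308), for Vcam1 by 3.36 ± 0.58 (adjusted p = 0.00411), for Spic by 2.37 ± 0.69 (adjusted p = 0.0395) and for Fth1 by 1.14 ± 0.30 (adjusted p = 0.0261). These 4 of 10 members compare with 10.9% of all 8417 genes tested. Fcna lay just outside the threshold (2.50 ± 0.79, adjusted p = 0.0563) and was called with RLE size factors (adjusted p = 0.0487), library totals (adjusted p = 0.0315), no filter (adjusted p = 9.79e-05), the fit over all groups (adjusted p = 0.0131) and DESeq2 (adjusted p = 0.0119). Hmox1 (1.57 ± 0.61, adjusted p = 0.114) and Slc11a1 (1.19 ± 0.46, adjusted p = 0.108) were both called in the fit over all groups (adjusted p = 0.0279 and 0.025) and without a filter, and Slc11a1 also with library totals. The call of Spic was lost in 10 of 15 fits without 1 library and that of Fth1 in 2 of 15. This comparison shares its spleen PMN-MDSC libraries with the one between spleen and tumor.

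In tumor M-MDSC the treated libraries, numbered 2 to 4, were uneven. Dnase1l3 was at 2.75, 11.5, 10.5 and 13.9 CPM in untreated and at 26.1, 249 and 95.8 CPM in treated tumor M-MDSC, and Vcam1 at 23.6, 102, 100.1 and 73.1 CPM and at 102, 710.3 and 448 CPM. Treated library 2 was the lowest of the 3 for both. Dnase1l3 rose by 3.65 ± 0.74 on the log2 scale (adjusted p = 0.0395), and Vcam1, with a log2 fold change of 2.40 ± 0.64, did not pass (adjusted p = 0.0782). For Vcam1, DESeq2 (2.41, adjusted p = 0.00195) and the fit over all groups (2.40, adjusted p = 0.00125) put the same fold change inside the threshold. With Fth1, 2 of 10 members were called higher and 0 lower, against 2.88% of all 8360 genes tested. DESeq2 called 7 members in this comparison, the fit over all groups 5 and the fit without a filter 4, where Dnase1l3 itself did not pass (adjusted p = 0.168). Leaving out any untreated library, or treated library 4, ended both calls (adjusted p up to 0.113 for Dnase1l3). Spic was at 0.550, 7.41, 2.50 and 0 CPM in untreated and 6.74, 18.1 and 33.2 CPM in treated libraries (log2 fold change 2.72 ± 0.79, adjusted p = 0.0987), which DESeq2 (adjusted p = 0.0159) and the fit over all groups (adjusted p = 0.0056) called. Cd163 ranged from 2.53 to 61.5 CPM among the 3 treated libraries. The 12 other red pulp and macrophage genes summed to 1282 to 2102 CPM in untreated and 2624 to 9053 CPM in treated libraries, and 0 of 10 tested passed edgeR's test, with 8 at an unadjusted p under 0.05 and 7 called by DESeq2. The 4 marginal zone macrophage genes summed to 134 to 254 CPM in untreated and 716 to 1045 CPM in treated libraries, and 3 of 3 tested were called higher, among them Marco (3.69 ± 0.58, adjusted p = 0.0169) and Nr1h3 (3.62 ± 0.39, adjusted p = 0.00428). The 6 endothelial genes went from 21.4 to 45.8 CPM to 74.6 to 162 CPM, with the growth factor receptor Kdr called higher (4.00 ± 0.77, adjusted p = 0.0308), and the epithelial gene Cdh1 was called lower (-2.75 ± 0.31, adjusted p = 0.00485). The 7 dendritic cell genes summed to 18.0 to 33 CPM in untreated and 1.69 to 9.41 CPM in treated libraries. The part of such cells in the values was not tested here either.

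No member's treatment effect differed past the threshold between spleen and tumor in M-MDSC. The test called 0 of the 8 members tested, with 1 member, Vcam1, at an unadjusted p under 0.05 (adjusted p = 0.0969), and 0.790% of all 8730 genes tested were called. DESeq2 and a fit over all groups each called 1 member, Vcam1. The difference for Dnase1l3 had a 95% interval from -2.89 to 0.76 on the log2 scale.

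**Figure D3:**
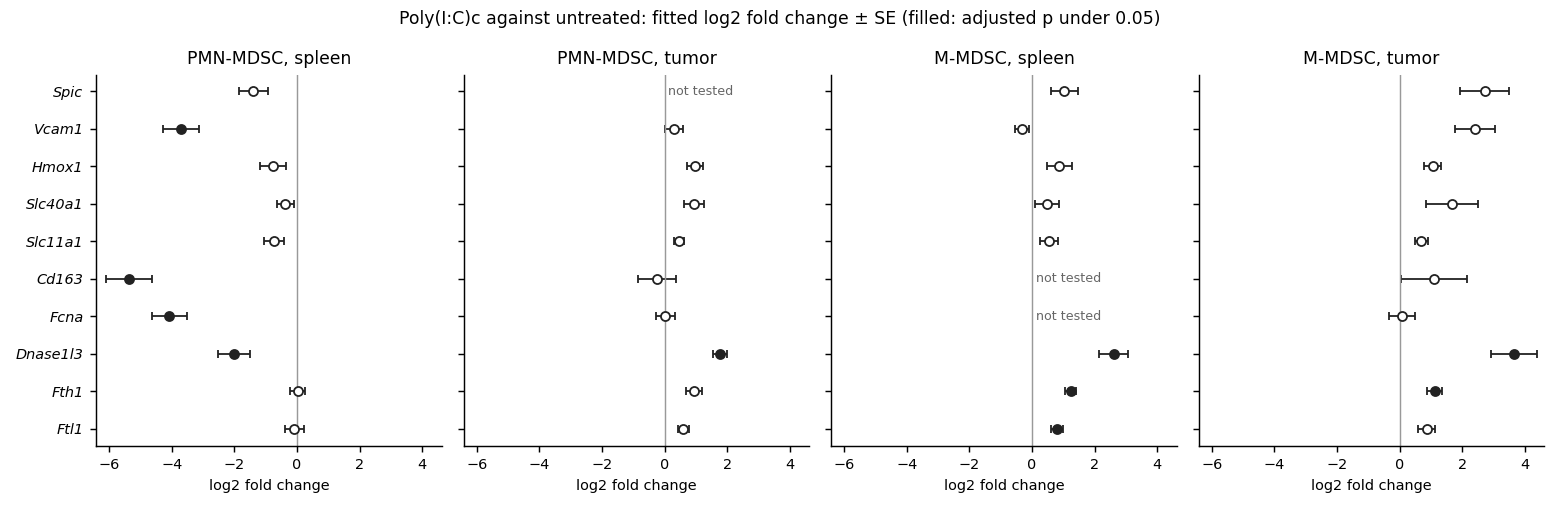
Log2 fold change of each member, poly(I:C)c against untreated, in the 4 sorted populations (points, fitted value; bars, ± 1 SE; filled, adjusted p under 0.05; members with too few counts are marked as not tested). Dnase1l3 is called in all 4 populations, lower in spleen PMN-MDSC (-2.02) and higher in the other 3 (1.77 to 3.65).

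Ferroportin stood far higher in untreated spleen PMN-MDSC than in the PMN-MDSC of the tumor or the M-MDSC of the spleen. Slc40a1 was at 631, 655, 646 and 749 CPM in untreated spleen PMN-MDSC, at 35.8, 69.9, 28.4 and 45.5 CPM in untreated tumor PMN-MDSC and at 44.3, 30.2, 43.0 and 41.2 CPM in untreated spleen M-MDSC. The spleen PMN-MDSC libraries lay apart from all others. The log2 fold change was -4.03 ± 0.30 for tumor against spleen PMN-MDSC (adjusted p = 4.7e-06) and -4.46 ± 0.16 for M-MDSC against PMN-MDSC in spleen (adjusted p = 4.1e-07), and all fits without 1 library kept both calls. In untreated tumor M-MDSC it was at 2.75, 27, 6.94 and 0 CPM, the last library being the shallowest of all with 793070 counts, so that 3 counts there correspond to 3.78 CPM. Between tumor and spleen M-MDSC the log2 fold change was -1.82 ± 0.59 (adjusted p = 0.0432), a call lost in 7 of 8 fits without 1 library and under DESeq2 (adjusted p = 0.116). For M-MDSC against PMN-MDSC in tumor it was -2.30 ± 0.71 (adjusted p = 0.0669), without overlap. The fit over all groups called this difference (adjusted p = 0.00742).

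After poly(I:C)c, Slc40a1 was at 312, 587 and 359 CPM in spleen PMN-MDSC, below every untreated library, with a log2 fold change of -0.37 ± 0.26 after normalization (adjusted p = 0.411). In tumor PMN-MDSC it was at 68.5, 68.3, 108 and 105 CPM (log2 fold change 0.94 ± 0.32, adjusted p = 0.146), and was called without a filter on low counts (adjusted p = 0.000741). The mean was 670.1 ± 53.7 CPM (SD, n = 4) in untreated spleen PMN-MDSC, and untreated tumor M-MDSC was the lowest group. Ranked by mean, only the first and second groups, untreated and treated spleen PMN-MDSC, were separated from each of their neighbours, and from treated tumor PMN-MDSC downwards neighbouring groups overlapped.

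Slc11a1, the phagosomal metal transporter, was also highest in untreated spleen PMN-MDSC, at 343, 561, 401 and 421 CPM. It was at 212, 223, 268 and 242 CPM in untreated tumor PMN-MDSC and at 126, 153, 114 and 134 CPM in untreated spleen M-MDSC, below every spleen PMN-MDSC library. The log2 fold changes were -1.03 ± 0.22 (tumor against spleen, adjusted p = 0.00261) and -2.10 ± 0.20 (M-MDSC against PMN-MDSC in spleen, adjusted p = 2.3e-05). In M-MDSC the order of the sites was the other way round, since it rose by 1.01 ± 0.17 from spleen to tumor (adjusted p = 9.3e-04), from 114 to 153 CPM to 146 to 263 CPM, with overlap. Between the untreated PMN-MDSC and M-MDSC of the tumor it did not pass the test (log2 fold change -0.14 ± 0.17, adjusted p = 0.673). Treated and untreated libraries did not overlap for Slc11a1 in spleen PMN-MDSC (132, 225 and 280.1 CPM after treatment), tumor PMN-MDSC (308 to 372 CPM) and tumor M-MDSC (338 to 440.2 CPM), lower in the first and higher in the other 2, but edgeR called it in 0 of the 4 treatment comparisons (adjusted p 0.121 to 0.232), apart from the alternatives given above for spleen PMN-MDSC. At an unadjusted p under 0.05 it was in 3 of the 4, and DESeq2 called it in both tumor comparisons (adjusted p = 0.0148 and 0.0387).

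Hmox1 varied little between sorted groups. Group means ran from 83.2 CPM in treated spleen PMN-MDSC to 198.8 CPM in treated spleen M-MDSC, a 2.39-fold span, and each neighbour in that order overlapped with the next. In untreated spleen PMN-MDSC it was at 308, 171, 84.3 and 133 CPM, library 1 again the highest, and in untreated tumor PMN-MDSC at 101, 80.7, 91.1 and 116 CPM. The call of a lower level in tumor (-0.96 ± 0.33, adjusted p = 0.0257) was lost in 5 of 8 fits without 1 library and with library totals (adjusted p = 0.0545), and the same number of fits ended the call between spleen M-MDSC and PMN-MDSC (-1.0 ± 0.34, adjusted p = 0.0279). Without library 1 the log2 fold changes of Hmox1 were -0.61 (adjusted p = 0.0657) between the sites and -0.62 (adjusted p = 0.069) between the spleen cell types. After poly(I:C)c Hmox1 was at 171, 179, 139 and 280.4 CPM in tumor PMN-MDSC, above every untreated library (log2 fold change 0.98 ± 0.25, adjusted p = 0.0635), and at 126, 156 and 293 CPM against 76.9 to 103 CPM in tumor M-MDSC (1.05 ± 0.28, adjusted p = 0.0775). Both lay just outside the threshold by edgeR and inside it by DESeq2 (adjusted p = 0.0109 and 0.0182).

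Spic and the surface markers divided by site and cell type in different ways. Spic was lower in tumor than in spleen for both cell types. In untreated tumor PMN-MDSC it was at 3.64, 5.42, 4.00 and 1.90 CPM, a log2 fold change against spleen of -3.00 ± 0.45 (adjusted p = 2.8e-04), and in M-MDSC the fold change was -3.31 ± 0.61 (adjusted p = 0.0018), both kept in all fits without 1 library. Between spleen M-MDSC and PMN-MDSC Spic showed no difference past the test (-0.14 ± 0.44, 95% interval -0.99 to 0.71). Vcam1 differed by cell type, with a log2 fold change of M-MDSC against PMN-MDSC of -2.40 ± 0.34 in spleen (adjusted p = 2.5e-04) and -1.94 ± 0.43 in tumor (adjusted p = 0.0166, lost without untreated tumor M-MDSC library 4), and did not pass between sites (adjusted p = 0.321 in PMN-MDSC and 0.0681 in M-MDSC). Other fits did call Vcam1 higher in tumor, in PMN-MDSC without untreated spleen library 1 (0.84, adjusted p = 0.0441) and in M-MDSC with DESeq2 (0.92, adjusted p = 0.0392) and without a filter on low counts (0.94, adjusted p = 0.000102). Fcna was lower in tumor than in spleen PMN-MDSC (-1.43 ± 0.38, adjusted p = 0.0075), with overlapping libraries, and lower in M-MDSC than in PMN-MDSC in spleen (-3.03 ± 0.45, adjusted p = 3.2e-04) and tumor (-1.35 ± 0.30, adjusted p = 0.011). Cd163 was at 17.6 to 55.2 CPM in spleen and 18.4 to 38.4 CPM in tumor PMN-MDSC (adjusted p = 0.437) and was lower in spleen M-MDSC, at 3.33 to 15.3 CPM (-2.44 ± 0.49, adjusted p = 0.00185). For M-MDSC against PMN-MDSC in tumor Cd163 lay just outside the threshold (-1.49 ± 0.48, adjusted p = 0.0612). DESeq2 (adjusted p = 0.0282) and the fit without a filter (adjusted p = 0.000615) called it lower there. Dnase1l3 was lower in M-MDSC than in PMN-MDSC in spleen (-1.05 ± 0.38, adjusted p = 0.0336) and tumor (-1.36 ± 0.37, adjusted p = 0.0281), and each call was lost in 5 of 8 fits without 1 library.

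These values belong to comparisons in which large parts of the transcriptome differed, and in which mice may be shared between groups. Between tumor and spleen PMN-MDSC 1 member was called higher and 5 lower of 10 tested, with 59.1% of all 7971 genes called, and between tumor and spleen M-MDSC 2 higher and 2 lower of 7 tested, with 28.4% of 8298 genes called. M-MDSC against PMN-MDSC gave 9 of 10 members lower and 0 higher in spleen, where 64.4% of 8579 genes were called. In tumor it gave 4 of 9 tested lower and 0 higher, against 13.0% of 7623 genes. Scaling by library totals moved the median of all genes in the spleen comparison from 0.08 to 0.45 on the log2 scale, left 6 members called lower and gave no call for Hmox1, Dnase1l3 and Ftl1. In spleen, the 12 other red pulp and macrophage genes split as well, with 1 higher in M-MDSC (Cd68, 0.75 ± 0.24, adjusted p = 0.0191) and 6 lower, led by Itgad (-3.10 ± 0.38, adjusted p = 1.1e-04) and Cd5l (-2.99 ± 0.51, adjusted p = 7.1e-04), a secreted scavenger protein of macrophages. In tumor PMN-MDSC 8 of 11 were higher than in spleen and 3 lower, the complement genes C1qa (3.45 ± 0.31, adjusted p = 1.3e-05) and C1qb (3.16 ± 0.37, adjusted p = 6.5e-05) at one end and Itgad (-4.07 ± 0.49, adjusted p = 6.9e-05) and Cd5l (-3.24 ± 0.60, adjusted p = 0.00103) at the other. The epithelial genes summed to 0.339 to 2.65 CPM in spleen and 126 to 762 CPM in tumor PMN-MDSC. In M-MDSC the epithelial sums were 1.05 to 10.8 CPM in spleen and 99.0 to 328 CPM in tumor. The neutrophil sums were 3118 to 7506 and 209 to 650 CPM there, and those of the 12 macrophage genes 539 to 754 and 1282 to 2102 CPM. The part of such cells in the site differences was not tested.

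**Figure D4:**
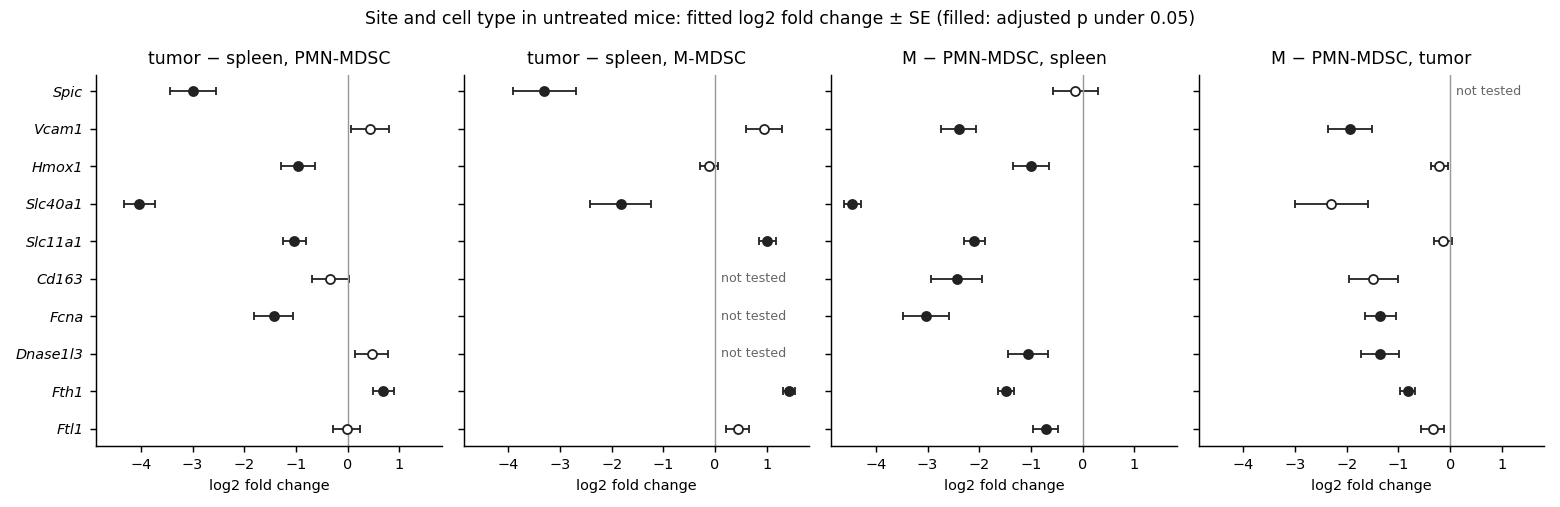
Log2 fold change of each member between sites and between cell types in untreated mice (points, fitted value; bars, ± 1 SE; filled, adjusted p under 0.05; members with too few counts are marked as not tested). Spic and Slc40a1 are lower in tumor in both cell types, Fth1 is higher in tumor in both, and no member is called higher in M-MDSC than in PMN-MDSC.

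Ferritin heavy chain was the most abundant member per transcript length in 9 of 9 groups, with means from 388 CPM per kilobase in bulk tumor to 5116 CPM per kilobase in treated tumor PMN-MDSC. This ranking took Ftl1 without its near-identical copies, which are described below. With them the light chain averaged 992 and 1680 CPM in untreated and treated spleen M-MDSC, above Fth1 at 640 and 1449 CPM. Fth1 was higher in tumor than in spleen and higher after poly(I:C)c in M-MDSC. It was at 636, 620.1, 605 and 701 CPM in untreated spleen M-MDSC and at 1383, 1413, 1691 and 1287 CPM in untreated tumor M-MDSC, without overlap (log2 fold change 1.43 ± 0.12, adjusted p = 4.2e-06). In untreated PMN-MDSC it went from 1176, 1602, 1406 and 1303 CPM in spleen to 2297, 2485, 2680.2 and 2405 CPM in tumor, also without overlap (0.69 ± 0.21, adjusted p = 0.0147, lost without untreated spleen library 4). M-MDSC had less Fth1 than PMN-MDSC in spleen (-1.48 ± 0.15, adjusted p = 3.2e-05) and in tumor (-0.82 ± 0.15, adjusted p = 0.00337).

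After poly(I:C)c Fth1 was at 1050.4, 1401, 1609 and 1736 CPM in spleen M-MDSC, all above the untreated libraries, and rose by 1.24 ± 0.17 on the log2 scale (adjusted p = 0.00107). In tumor M-MDSC it was at 2421, 3897 and 3745 CPM and rose by 1.12 ± 0.24 (adjusted p = 0.0408), the call that any left-out untreated library ended (adjusted p up to 0.136). In tumor PMN-MDSC it was at 3753, 4246, 5079 and 5935 CPM, each above the untreated libraries, with a log2 fold change of 0.94 ± 0.24 (adjusted p = 0.0649). DESeq2 (adjusted p = 8.0e-04), a fit over all groups (adjusted p = 0.0186) and library totals (adjusted p = 0.0368) called this last difference. In spleen PMN-MDSC it was at 852, 1222 and 1342 CPM, with no difference past the test (0.02 ± 0.25, 95% interval -0.47 to 0.50).

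Ferritin light chain was called under poly(I:C)c in spleen M-MDSC. Ftl1 was at 628, 627, 461 and 542 CPM in untreated and 694, 875, 1066 and 1128 CPM in treated spleen M-MDSC, without overlap, and rose by 0.79 ± 0.19 (adjusted p = 0.0156). In tumor PMN-MDSC the groups stood apart as well, at 717 to 864 and 1131 to 1333 CPM (0.60 ± 0.17, adjusted p = 0.0918), and DESeq2 called this difference (adjusted p = 0.000236). In tumor M-MDSC Ftl1 was at 342 to 775 CPM in untreated and 1095 to 1320.1 CPM in treated libraries, without overlap. Its log2 fold change of 0.86 ± 0.28 did not pass edgeR's test (adjusted p = 0.129), but passed DESeq2 (adjusted p = 0.0371), the fit over all groups (adjusted p = 0.0277) and the fit without a filter (adjusted p = 0.0147). Between untreated tumor and spleen PMN-MDSC it did not pass (-0.01 ± 0.26, adjusted p = 0.974). Ftl1 has near-identical copies in the table, Ftl1-ps1 and Ftl2-ps, that together with it took the reads. A further copy, Ftl1-ps2, held 287 counts over all libraries. Ftl1 held 52.3% to 69.3% of the sum of itself and these copies in every library, so its own level is uncertain. This sum was 992 ± 99.2 CPM (SD, n = 4) in untreated and 1680 ± 349 CPM (SD, n = 4) in treated spleen M-MDSC.

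The ratio of Fth1 to Ftl1, both per kilobase, was lowest in spleen M-MDSC. It was 1.20 ± 0.18 (SD, n = 4) in untreated and 1.605 ± 0.044 (n = 4) in treated spleen M-MDSC, 2.12 ± 0.47 (n = 4) and 2.16 ± 0.038 (n = 3) in spleen PMN-MDSC, 2.57 ± 0.96 (n = 4) and 2.795 ± 0.426 (n = 3) in tumor M-MDSC, and 3.30 ± 0.43 (n = 4) and 4.13 ± 1.05 (n = 4) in tumor PMN-MDSC. Every spleen M-MDSC library, at 1.03 to 1.67, lay below every tumor PMN-MDSC library, at 2.77 to 5.47. In spleen M-MDSC the untreated libraries, at 1.03 to 1.37, also lay below the treated ones, at 1.57 to 1.67, while the untreated libraries of the tumor cell types overlapped. The uncertainty of Ftl1 carries over to this ratio.

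**Figure D5:**
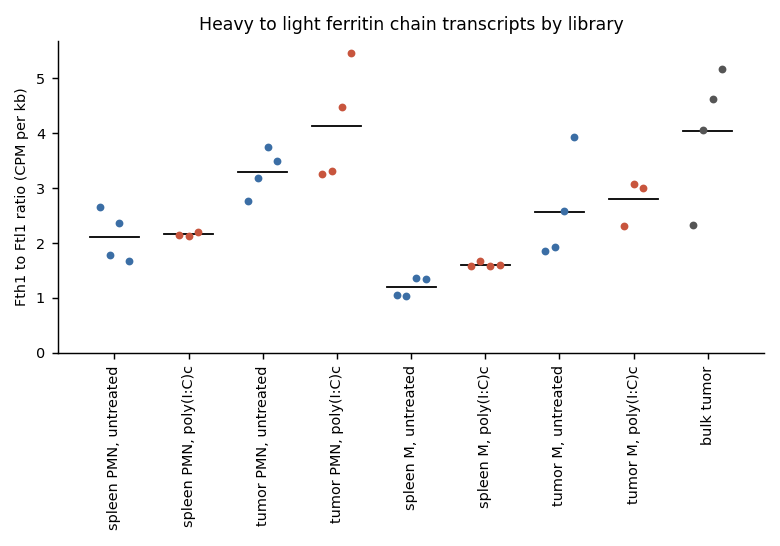
Ratio of Fth1 to Ftl1, both as CPM per kilobase of transcript, in each library by group (points, libraries; bars, mean; blue, untreated; red, poly(I:C)c; grey, bulk tumor). The ratio is lowest in spleen M-MDSC (means 1.20 and 1.605) and highest in treated tumor PMN-MDSC (mean 4.13) and bulk tumor (mean 4.04).

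Bulk tumor held little of most members. Spic was at 0.13 to 0.80 CPM (1 to 7 counts a library), Cd163 at 0.13 to 1.59 CPM, Fcna at 0.27 to 0.90 CPM and Dnase1l3 at 1.19 to 6.53 CPM, and 6 of the 10 members could be tested against untreated tumor M-MDSC. Slc11a1 was at 2.91, 2.39, 6.08 and 6.30 CPM, lower than in M-MDSC by 5.79 ± 0.34 on the log2 scale (adjusted p = 7.0e-08), and Hmox1 at 7.0, 4.24, 7.65 and 7.67 CPM, lower by 3.86 ± 0.22 (adjusted p = 6.5e-08). Fth1 (-2.20 ± 0.28, adjusted p = 2.6e-05) and Ftl1 (-2.99 ± 0.29, adjusted p = 2.8e-06) were also lower. Vcam1 alone was called higher, at 552, 852, 632 and 773 CPM (3.03 ± 0.38, adjusted p = 2.7e-05), and Slc40a1, at 13.0 to 27.1 CPM, did not pass (0.93 ± 0.65, adjusted p = 0.223). Slc40a1 was called higher without a filter on low counts (1.11, adjusted p = 0.0305) and in 1 fit without 1 library. In this comparison 1 member was called higher and 4 lower, with 69.2% of all 11022 genes called. Bulk tumor is a mixture in which the 5 epithelial tumor cell genes summed to 4923 to 6689 CPM and the 7 stromal genes to 863 to 1119.9 CPM.

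Other genes of the iron pathway were read by list. Of 8 genes for iron sensing, chaperones and export partners, 0 were called by edgeR in each of the 4 treatment comparisons (4 to 6 tested, 1 at an unadjusted p under 0.05 in each), and DESeq2 called 1 in all but spleen M-MDSC, where it called 0. Hamp, the gene of hepcidin, the hormone that degrades ferroportin, was at 0 in 7 of the 9 groups and at 0.498 CPM at most in untreated spleen PMN-MDSC. Of 10 genes for iron uptake and release, spleen PMN-MDSC had 1 of 5 tested higher, the siderophore carrier Lcn2 (1.98 ± 0.39, adjusted p = 0.0171), and 1 lower, the hemopexin receptor Lrp1 (-4.07 ± 0.62, adjusted p = 0.00667). Lrp1 was also lower in treated spleen M-MDSC (-0.96 ± 0.19, adjusted p = 0.00716), with the ferrireductase Steap3 (-2.33 ± 0.39, adjusted p = 0.00298). Slc39a14, an importer of iron and zinc, fell in treated tumor M-MDSC (-1.60 ± 0.26, adjusted p = 0.0174). Of the uptake and release genes 2 of 7 tested were thus lower in spleen M-MDSC and 1 of 7 in tumor M-MDSC, and in tumor PMN-MDSC edgeR called 0 of 8, with 2 at an unadjusted p under 0.05 and 0 called by DESeq2. Of all genes tested, 6.10% were called higher and 5.52% lower in treated spleen PMN-MDSC, 9.96% and 9.48% in treated spleen M-MDSC, 2.29% and 1.07% in treated tumor PMN-MDSC, and 1.82% and 1.06% in treated tumor M-MDSC.

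Heme genes were called in both directions in treated spleen. Alas1, which starts heme synthesis, rose in spleen PMN-MDSC (1.09 ± 0.26, adjusted p = 0.0295) and spleen M-MDSC (0.99 ± 0.16, adjusted p = 0.00281), as did the constitutive heme oxygenase Hmox2 (0.89 ± 0.21, adjusted p = 0.0284, and 0.59 ± 0.16, adjusted p = 0.0278). Ferrochelatase (Fech, -1.47 ± 0.32, adjusted p = 0.0237) and the heme transporter Slc48a1 (-0.98 ± 0.21, adjusted p = 0.0221) fell in spleen PMN-MDSC, so that 2 of 6 tested were higher and 2 lower there, and in spleen M-MDSC 2 of 7 were higher and 1 lower. Bach1, the repressor of Spic and Hmox1, fell in treated spleen M-MDSC (-0.75 ± 0.13, adjusted p = 0.00311), where 4 of 9 genes of the NRF2 and BACH1 list were called higher and 1 lower, among them Keap1 (0.95 ± 0.22, adjusted p = 0.0136) and Txnrd1 (0.71 ± 0.15, adjusted p = 0.00893). In treated spleen PMN-MDSC 2 of 8 tested genes of this list were higher, Keap1 (1.12 ± 0.24, adjusted p = 0.0232) and Mafg (0.80 ± 0.22, adjusted p = 0.0487), and 0 lower. In tumor PMN-MDSC 0 of 7 heme genes and 0 of 9 genes of this list passed edgeR's test, with 2 of each at an unadjusted p under 0.05, and DESeq2 called 0 and 1. In tumor M-MDSC edgeR again called 0 of each, with 3 and 2 at an unadjusted p under 0.05, and DESeq2 called 1 and 2. Between sites, 5 of 9 genes of the list were higher in tumor than in spleen in PMN-MDSC and 3 lower, and 5 of 9 higher and 0 lower in M-MDSC. Of all genes tested, 29.4% were higher and 29.7% lower in tumor PMN-MDSC, and 15.7% and 12.7% in tumor M-MDSC. The thioredoxin reductase Txnrd1 was higher in both, at 2.09 ± 0.19 (adjusted p = 1.3e-05) and 2.09 ± 0.16 (adjusted p = 2.0e-06).

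The members were also compared with each other over the 9 group means of log2(CPM + 1). For the 45 pairs of members Pearson's r ran from -0.428 to 0.971, with a median of 0.481. Over these 9 points, which share libraries and depth between genes, r was 0.971 for Hmox1 and Ftl1, 0.948 for Hmox1 and Slc11a1 and 0.906 for Cd163 and Fcna, but 0.400 for Spic and Slc40a1 and -0.428 for Spic and Vcam1. Bulk tumor, where Hmox1 and Slc11a1 were low, weighed on these values. Over the 8 sorted groups r was 0.499 for Hmox1 and Slc11a1, 0.791 for Hmox1 and Ftl1, 0.899 for Cd163 and Fcna, 0.283 for Spic and Slc40a1 and -0.180 for Spic and Vcam1. Without bulk tumor the 45 values ran from -0.320 to 0.974, with a median of 0.358, and 10 changed sign. The highest was then that of Dnase1l3 and Ftl1 (0.974, against 0.729 over 9 groups), followed by Vcam1 and Cd163 (0.900, against 0.49). Vcam1 turned from negative to positive with Slc11a1 (-0.289 to 0.697), Ftl1 (-0.201 to 0.71) and Hmox1 (-0.299 to 0.487). Among 8778 genes with a mean of at least 10 CPM, the closest to Spic were Ppil2 (r = 0.976), Fzr1 (0.974) and Fut4 (0.964), and the closest to Slc40a1 were Rtn3 (0.989), Tbc1d10c (0.980) and Prkd2 (0.977). Those closest to Hmox1 were Abcg1 (0.984), Lcp2 (0.982) and Creg1 (0.980), at 0.866, 0.896 and 0.820 without bulk tumor, and to Fth1 Mdm2 (0.959), Ninj1 (0.955) and Sqstm1 (0.953). None of the 12 is a member, and the values are descriptions over 9 points.

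The 3 members with an iron-responsive element differed in direction. From spleen to tumor PMN-MDSC Fth1 rose by 0.69 while Slc40a1 fell by 4.03 on the log2 scale, and from spleen PMN-MDSC to spleen M-MDSC Slc40a1, Fth1 and Ftl1 fell by 4.46, 1.48 and 0.71. The call of this last fall (adjusted p = 0.0244) was lost in 4 of 8 fits without 1 library. Library totals did not call it either (-0.33, adjusted p = 0.201). In treated spleen M-MDSC Fth1 and Ftl1 rose, and Slc40a1, at 32.3, 22.7, 74.9 and 85.4 CPM against 30.2 to 44.3 CPM, did not pass the test (0.49 ± 0.39, adjusted p = 0.414).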

How the data were processed

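RNA was sequenced after a stranded total RNA library kit with 13 cycles of amplification and no molecular identifiers. The deposited values are raw counts per gene, which the authors made by aligning reads to GRCm38 with ContextMap and BWA and counting by strand with featureCounts (Subread 1.4.6-p3) on Gencode genes. The columns of the count table name a group but not a mouse. From these counts CPM were computed on all gene counts, without TMM, and each comparison was fitted with edgeR 4.0.16 (R 4.3.3, limma 3.58.1): TMM factors, robust quasi-likelihood F-test, two-sided test, genes averaging 25 counts or more per library fitted, Benjamini-Hochberg over all genes tested. SE is the log2 fold change divided by the root of F. Fitted 95% intervals put the normal quantile on this SE. With few libraries they are therefore narrower than the F-test implies. The fits were tested on simulated counts. Levels per kilobase used the length of each gene's transcript 201. Alternatives were DESeq2 1.42.0, RLE size factors, library totals, no filter, a fit over all groups, the study's threshold (adjusted p under 0.001 and 2-fold, applied to edgeR and to DESeq2) and leaving out each library; library totals and the threshold on DESeq2 were added after seeing the data. All 10 members in every group, the called genes with the 2 highest and the 2 lowest fold changes of a pathway list, and the 3 genes most like 4 of the members were named. The members and lists were chosen with earlier results of these data known. The study speaks of the replicates of a group as mice, and numbers that repeat in the sample titles leave it possible that groups share mice, which the fits took as independent. The genotype of the tumor line is not reported here.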

Additional observations from a re-analysis of the deposited data

Results flagged for a closer look

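Of 70 sets of member values in groups of 4 libraries, 1 held a library farther from the others than Dixon's limit allows, where chance gives about 1 in 20: Spic in untreated spleen PMN-MDSC, at 53.1 CPM in library 1 and 15.9 to 21.5 CPM in the other 3. The same library was the highest of its group for Vcam1, Hmox1, Cd163 and Fcna, for the 12 other red pulp and macrophage genes and for the erythroid, endothelial and B cell lists.

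The effect of poly(I:C)c differed between spleen and tumor PMN-MDSC for Spic (-2.59 on the log2 scale), Vcam1 (-4.03), Cd163 (-5.13), Fcna (-4.13) and Dnase1l3 (-3.82), by the interaction test. It differed between M-MDSC and PMN-MDSC of the spleen for Spic (2.37), Vcam1 (3.36), Dnase1l3 (4.57) and Fth1 (1.14). Both tests use the same spleen PMN-MDSC libraries.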

How the results depend on the processing

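Of the 47 calls on members, 32 were kept in every fit without 1 library in which the gene could be tested and 15 were lost in at least 1 such fit, while 0 changed direction. By setting, the calls lost numbered 33 under the study's cut-offs applied to edgeR's values, 14 under the same cut-offs with DESeq2, an alternative added after seeing the data, 4 with library totals, 2 without the filter, 2 in the fit over all groups, 1 with DESeq2 and 0 with RLE size factors. The cause was not tested, except that the study's cut-offs ask for more by construction. Depth limits the members under 25 counts per library, mainly Spic, Cd163, Fcna and Dnase1l3, and of the intervals given, only those of the pooled Cd163 ratios cover counting error alone, while fitted intervals include the spread between libraries. No paired analysis was possible because the columns of the count table carry a running number and not the number of the sample titles, which repeats between groups.

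The number of members called changed with the setting. Under the study's cut-offs, applied to edgeR's values, 0 were called for poly(I:C)c in spleen PMN-MDSC, tumor PMN-MDSC, spleen M-MDSC and tumor M-MDSC, for M-MDSC against PMN-MDSC in tumor and for the differences of the treatment effect in PMN-MDSC and in spleen, 2 for each comparison of tumor with spleen, and 5 for M-MDSC against PMN-MDSC in spleen. The same cut-offs applied to DESeq2 gave 3, 1, 2 and 2 in the 4 treatment comparisons, 1 for M-MDSC against PMN-MDSC in tumor, and 4 and 2 for the differences in PMN-MDSC and in spleen. Library totals gave 3 in treated tumor PMN-MDSC, 9 for the difference between spleen and tumor PMN-MDSC and 7 for that between the spleen cell types. Without the filter there were 4 in tumor PMN-MDSC, 5 in spleen M-MDSC, 4 in tumor M-MDSC, 10 in bulk tumor, and 3, 8 and 7 for the differences in M-MDSC, in PMN-MDSC and in spleen. The fit over all groups gave 2 in tumor PMN-MDSC, 5 in tumor M-MDSC, 1 for the difference in M-MDSC and 7 for that in spleen, and DESeq2 gave 5, 7 and 1 for the first 3 of these. Leaving out 1 library gave 1 to 2 in tumor PMN-MDSC, 0 to 5 in tumor M-MDSC, 3 to 4 for tumor against spleen M-MDSC, 6 to 9 and 3 to 5 for cell types in spleen and tumor, and 0 to 1, 3 to 6 and 2 to 6 for the differences in M-MDSC, PMN-MDSC and spleen. It gave 3 to 4 in spleen PMN-MDSC, 3 in spleen M-MDSC, 5 to 6 for tumor against spleen PMN-MDSC and 5 to 6 for bulk tumor.

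Directions turned only for values that no test called. For Fth1 in spleen PMN-MDSC the log2 fold change was -0.268 with library totals and -0.039 in the fit over all groups. Library totals also turned Ftl1 between tumor and spleen PMN-MDSC (0.150), Spic between the spleen cell types (0.230) and the difference in M-MDSC for Fth1 (-0.038), where this scaling moved the median of all genes, to -0.283 in treated spleen PMN-MDSC and to 0.454 between the spleen cell types. Leaving out 1 library gave ranges across 0. In spleen PMN-MDSC these were -0.121 to 0.203 for Fth1 and -0.284 to 0.142 for Ftl1, in tumor PMN-MDSC -1.129 to 0.091 for Cd163 and -0.194 to 0.189 for Fcna, and in tumor M-MDSC -0.046 to 0.372 for Fcna. Between tumor and spleen they were -0.560 to 0.072 for Cd163 and -0.197 to 0.273 for Ftl1 in PMN-MDSC and -0.242 to 0.048 for Hmox1 in M-MDSC, and between the spleen cell types -0.361 to 0.368 for Spic. For the difference in M-MDSC they were -0.668 to 0.268 for Hmox1, -0.504 to 0.016 for Slc11a1, -0.066 to 0.241 for Fth1 and -0.171 to 0.146 for Ftl1.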
